A study of Canis lupus familiaris with 9 samples.

Results

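Chaperones are proteins that help other proteins reach and keep their shape. HSP70 proteins bind and release unfolded stretches in a cycle that J-domain (DNAJ) proteins start and nucleotide exchange factors such as HSPH1 reset. HSP90 proteins act later in folding, on kinases and other signalling proteins, and the CCT ring (also called TRiC) encloses newly made actin, tubulin and other proteins while they fold. In the endoplasmic reticulum (ER), HSPA5, HSP90B1, calreticulin (CALR) and calnexin (CANX) fold secreted and membrane proteins, which in T cells include the chains of the antigen receptor.

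The genes described here were chosen by symbol: those beginning with HSPA, HSPB, DNAJA, DNAJB, DNAJC or CCT and a number, those beginning with HSP90, and HSPD1, HSPE1, HSPH1, TCP1, CALR, CANX and PDIA3. The rule found 71 of the 28008 features in the files. They comprised 8 genes of the CCT family, 2 cytosolic HSP90 genes, 8 cytosolic HSP70 genes and their relatives, 17 J-domain genes of the cytosol and nucleus, 14 genes of the ER, 8 of mitochondria, 7 genes with an HSPB symbol (the small heat shock protein group) and 7 J-domain genes of vesicles and other places. CCT7, DNAJA1, DNAJB11, HSPD1 and PDIA3 were not found under these symbols and were not analysed here.

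RNA was sequenced from 6 canine CD4+ lymphomas of the peripheral T cell type (PTCL), which arise from mature T cells, and from 3 control samples of CD4+ T cells. The 3 Boxer lymphomas came from a castrated male of 6 years, a spayed female of 8 years and a castrated male of 6 years. The 3 other-breed lymphomas came from a spayed female Cavalier King Charles Spaniel of 3 years, a spayed female Rhodesian Ridgeback of 4 years and a castrated male Collie of 11 years, numbered 1 to 3 here in that order. The 3 controls were sorted from healthy hounds, all intact females of 1 year, so age, breed and neutering cannot be told apart from disease by the groups alone. For the lymphomas the labels give neither a tissue nor a sort. They do not state whether each control is another dog, and the p-values refer to the spread among samples.

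The libraries held 11710623 to 18488468 reads. Of the T cell marker list, 7 genes were measured, and their summed level was 3232 to 5304 CPM in the lymphomas and 4054 to 4529 CPM in the controls, where CPM scales the reads of every library to an equal total. Markers of other cell types were also measured. All 6 measured markers of dividing cells rose, with sums of 782 to 1909 CPM in lymphomas and 104 to 131 CPM in controls. Of 8 macrophage markers tested, 7 rose (50.2 to 1130 CPM in lymphomas, 6.66 to 12.5 CPM in controls), as did 6 of 9 fibroblast markers (5.37 to 738 CPM in lymphomas, 1.35 to 2.39 CPM in controls), 3 of 6 endothelial markers (6.08 to 382 CPM in lymphomas, 20.9 to 43.2 CPM in controls), 4 of 4 neutrophil markers (6.41 to 25.2 CPM in lymphomas, 1.11 to 2.22 CPM in controls) and 1 of 4 plasma cell markers. The 5 B cell markers summed to 30.5 to 399 CPM in lymphomas and 83.0 to 95.3 CPM in controls. The fibroblast markers LUM and MMP2 had no read in any control. The part of these markers in the chaperone results was not tested, and in bulk RNA fewer cells of a type and less RNA per cell cannot be told apart.

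In sum, the chaperone genes took a larger share of the reads in lymphomas. The 71 genes held 1.62%, 1.41% and 1.52% of reads in Boxer lymphomas 1 to 3, 1.21%, 1.15% and 1.16% in other-breed lymphomas 1 to 3, and 0.808%, 0.794% and 0.719% in controls 1 to 3. Every lymphoma lay above every control, and every Boxer lymphoma above every other-breed lymphoma. The sum is weighted to the genes with most reads, among them HSP90AB1, HSPA8 and HSP90AA1, and does not describe every group. The lymphoma mean was 0.979 times the control mean for cytosolic and nuclear J-domain genes and 0.848 times for vesicle genes. Sums of mitochondrial genes overlapped between lymphomas and controls.

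**Figure D1:**
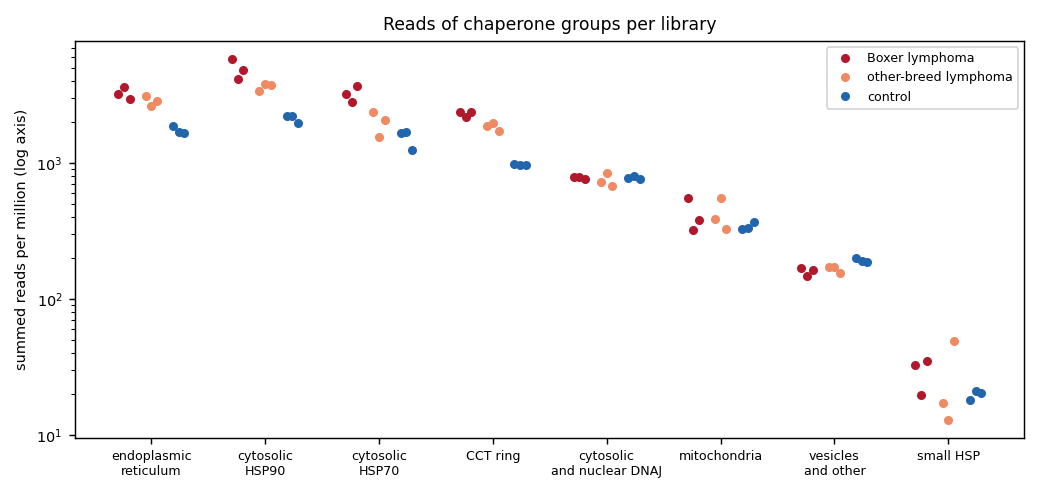
Summed CPM (log axis) of each chaperone group in each library; points are libraries of Boxer lymphomas, other-breed lymphomas and controls. The CCT ring, HSP90 and ER sums of all 6 lymphomas lie above those of the 3 controls, while the sums of cytosolic and nuclear DNAJ genes overlap; heights of different groups are not comparable, as reads were not divided by gene length.

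The first comparison asked which chaperone genes differ between the 6 lymphomas and the 3 controls. Of the 71 genes, 60 had a value of at least 10 normalised reads in at least 3 libraries and were tested. In limma's test 20 rose and 3 fell at an adjusted p under 0.05. Of the 15977 genes tested, 19.4% rose and 15.7% fell (35.0% in either direction). HSPB8, among the 20, met the filter only through the lymphomas. The median log2 fold change was 0.53 over the 60 chaperone genes and 0.05 over all genes tested. All 6 lymphomas lay above all 3 controls for 18 of the 60 genes and below them for 3. The same count was not made over all genes tested, so it is not read as a trait of chaperone genes. The 11 genes not tested reached at most 20.9 normalised reads in any library, and DNAJB8, DNAJC5B and HSPB7 had no read. With age as a covariate, 5 chaperone genes rose (CCT2, CCT3, CCT6A, CCT8 and HSP90AB1) and DNAJB2 alone fell, where 6.56% of all genes rose and 5.54% fell. The calls of the other 17 were lost. Every control was younger than every lymphoma, so this fit has less power and cannot tell age apart from disease. Without control 2, 12 chaperone genes rose, where 11.9% of all genes tested did.

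**Figure D2:**
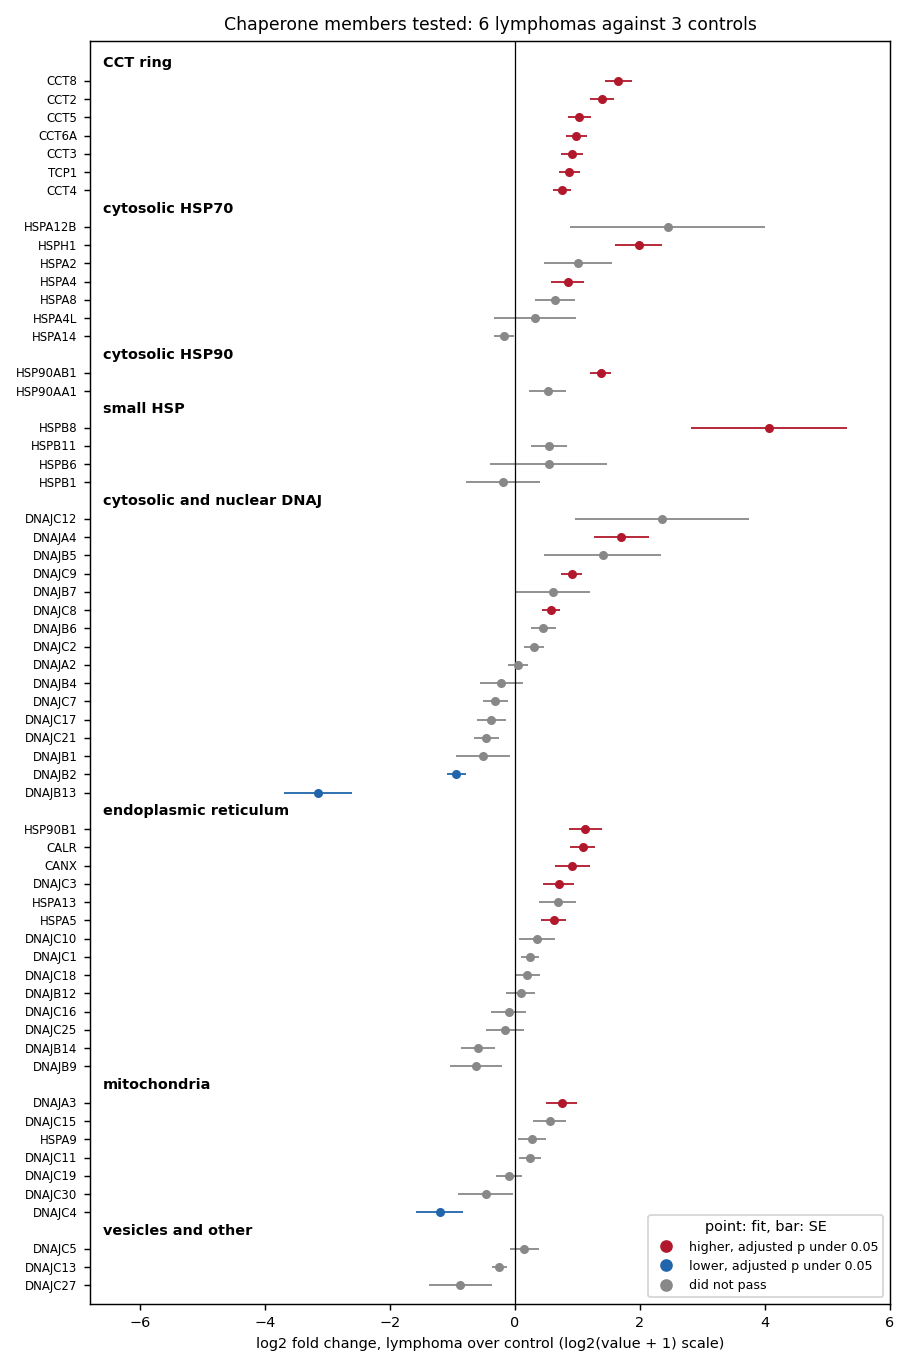
Log2 fold change of lymphoma over control (log2 of the normalised value + 1) for the 60 chaperone genes tested, by group; points are limma estimates and bars standard errors, with colour for genes past an adjusted p of 0.05. The 7 CCT subunits all lie right of 0 and passed, while the 16 cytosolic and nuclear J-domain genes lie on both sides.

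In the CCT ring all 7 tested genes rose, where 19.4% of all genes did. With age as a covariate CCT4, CCT5 and TCP1 did not pass (adjusted p 0.0554 to 0.0963) and the other 4 did. The ring is built of paralogous subunits, and the 7 tested were TCP1 (the alpha subunit), CCT2, CCT3, CCT4, CCT5, CCT6A and CCT8. The summed level of the 8 genes of the family was 2387, 2173 and 2398 CPM in Boxer lymphomas 1 to 3, 1876, 1980 and 1739 CPM in other-breed lymphomas 1 to 3, and 988, 968 and 971 CPM in controls 1 to 3. The lymphoma mean was 2.15 times the control mean.

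CCT8 had 7951, 8162 and 5413 normalised reads in Boxer lymphomas, 4154, 5460.2 and 5872 in other-breed lymphomas and 1839.9, 1978 and 1901 in controls. Its log2 fold change, 1.65 ± 0.21 (SE; adjusted p = 0.000412), was the highest of the 7. CCT2 had 4659, 5164 and 5328 normalised reads in Boxer lymphomas, 4309, 2932 and 3821 in other-breed lymphomas and 1598, 1633 and 1646 in controls. That is a log2 fold change of 1.40 ± 0.19 (adjusted p = 0.000577). For both genes the 3 controls lay close together and the lowest lymphoma lay far above them.

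The 5 remaining subunits rose by less. CCT5 averaged 3554 ± 690.1 normalised reads in lymphomas and 1708 ± 33.5 in controls (SD, n = 6 and 3), a log2 fold change of 1.03 ± 0.18. CCT6A averaged 5640.4 ± 960.4 in lymphomas and 2835 ± 284 in controls, a log2 fold change of 0.98 ± 0.17. CCT3 averaged 3991 ± 793 in lymphomas and 2092 ± 94.0 in controls (0.91 ± 0.17). In each of these subunits the spread among controls was smaller than that among lymphomas. TCP1 averaged 4386 ± 585 in lymphomas and 2410.4 ± 492 in controls (0.87 ± 0.17). CCT4 averaged 3968 ± 509.9 in lymphomas and 2339 ± 126 in controls (0.75 ± 0.15). Adjusted p-values of these 5 ran from 0.00198 to 0.00371, and no subunit's groups overlapped. CCT8L2, a CCT8-like gene, had reads in 1 lymphoma and 1 control only (2.08 and 6.48 normalised reads) and was not tested.

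**Figure D3:**
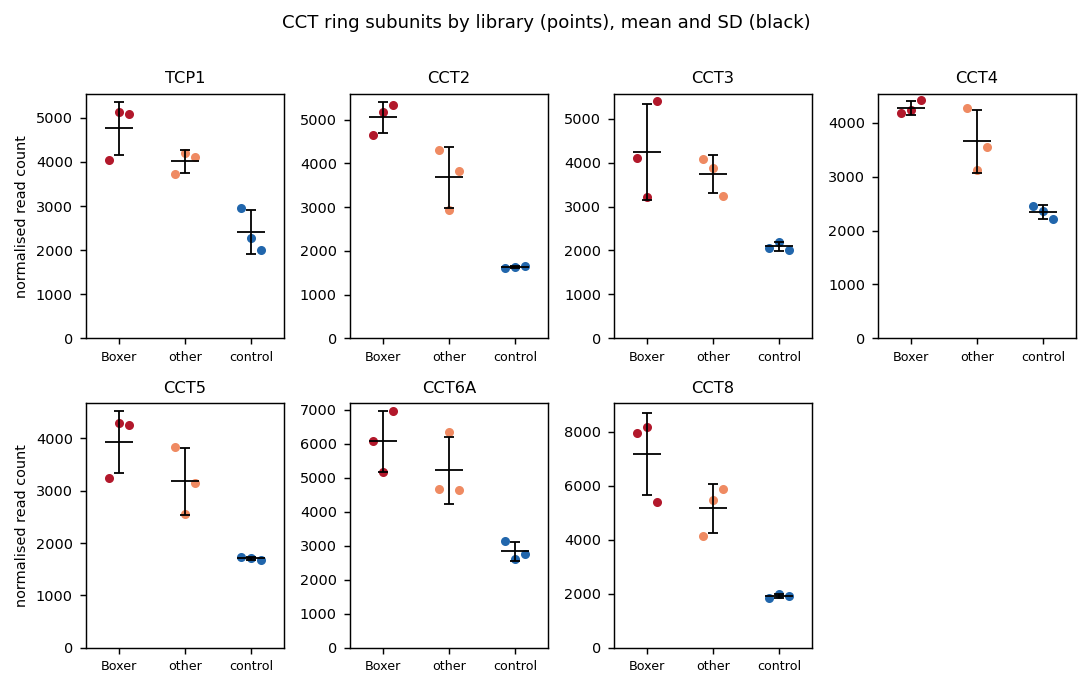
Normalised read counts of the 7 CCT subunits in each library; points are libraries, black lines the mean and SD of 3 Boxer lymphomas, 3 other-breed lymphomas and 3 controls, and each panel has its own axis from 0. In each panel the 6 lymphomas lie above the 3 controls.

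Cofactors of the ring were read from a list of prefoldin subunits, which hand unfolded actin and tubulin to CCT, and phosducin-like proteins, which bind it. Of 8 genes found, 4 rose (PDCL3, PFDN6, PDCL and TXNDC9) and 1 fell, where 19.4% of all genes rose and 15.7% fell. PFDN6 had 380 to 737 normalised reads in lymphomas and 236 to 298 in controls (log2 change 0.94, adjusted p = 0.0107). PFDN5, also a prefoldin subunit, went the other way: it had 856, 1058 and 1434 normalised reads in Boxer lymphomas, 1411, 1089.8 and 1464 in other-breed lymphomas and 2188, 2589 and 2511 in controls. The log2 fold change was -1.02 ± 0.19 (adjusted p = 0.00328). The list's median was 0.56.

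Of the HSP90 pair in the cytosol, HSP90AB1 rose and HSP90AA1 did not pass. HSP90AB1, the isoform usually described as constitutive, had 44668, 38702 and 45588 normalised reads in Boxer lymphomas, 33898, 39544 and 37136 in other-breed lymphomas and 14581, 15958 and 15562 in controls. It rose by 1.37 ± 0.17 on the log2 scale (adjusted p = 0.000335), the smallest p of the 60 genes. HSP90AA1, the isoform usually described as stress-inducible, had 39419, 29099.9 and 28345 normalised reads in Boxer lymphomas, 18477, 15330.3 and 23886 in other-breed lymphomas and 21036, 17929.5 and 13205 in controls. The Boxer lymphomas and other-breed lymphoma 3 lay above all controls, and other-breed lymphomas 1 and 2 lay among them. Its log2 fold change was 0.52 ± 0.30 (adjusted p = 0.188), and 0.80 (adjusted p = 0.0325) without other-breed lymphomas 1 and 2. Leaving out the lymphomas that lay among the controls had to raise the estimate, so that pass is no support for a rise.

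Within a library, the log2 ratio of HSP90AB1 to HSP90AA1 averaged 0.69 ± 0.41 in the 6 lymphomas and -0.15 ± 0.38 in the 3 controls (SD). The ratio ranged over 0.18 to 1.37 in lymphomas and -0.53 to 0.24 in controls, so the groups overlapped by 1 lymphoma, Boxer lymphoma 1. This pair was chosen after its values were seen and was not tested.

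Genes for co-chaperones of HSP90 and HSP70 were read from another list. Of 23 found, 10 rose and 13 did not pass, where 19.4% of all genes rose (median log2 fold change 0.44 over the list and 0.05 over all genes). FKBP4, an HSP90 partner of steroid receptors, had 1275 to 2389 normalised reads in lymphomas and 487 to 691 in controls (log2 change 1.34, adjusted p = 0.00148). CHORDC1, which binds HSP90, had 927 to 1524 in lymphomas and 478 to 688 in controls (1.12, adjusted p = 0.00206). RPAP3, a subunit of the R2TP complex that works with HSP90, had 1598 to 3299 in lymphomas and 925 to 1026 in controls (1.24, adjusted p = 0.0025). These 3 genes kept lymphomas and controls apart. BAG2, a nucleotide exchange factor of HSP70, was low: 25.9 to 141 normalised reads in lymphomas and 5.78 to 11.1 in controls (2.85, adjusted p = 0.00362).

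Among the 7 tested genes of the cytosolic HSP70 group, 2 rose and 5 did not pass, where 19.4% of all genes rose. HSPH1 and HSPA4, which rose, are nucleotide exchange factors of the HSP110 type, as is HSPA4L, which did not pass. HSPH1 (HSP105) had 4277, 3312 and 3705 normalised reads in Boxer lymphomas, 1959.8, 1481 and 1846 in other-breed lymphomas and 661, 960.2 and 431 in controls. Its log2 fold change was 1.98 ± 0.37 (adjusted p = 0.00309), and the 3 groups followed each other without overlap. HSPA4 had 7139, 4054 and 9093 normalised reads in Boxer lymphomas, 4064, 5391 and 4272 in other-breed lymphomas and 3427, 2832 and 2792 in controls. The lymphomas lay above the controls, and the log2 fold change was 0.84 ± 0.27 (adjusted p = 0.0324). That call was lost whenever 1 control was left out (adjusted p 0.0652 to 0.113), without Boxer lymphoma 1 (0.0511) and in female dogs alone (0.0510). HSPA4L, the paralogue of HSPA4, had 84.7 to 1118 normalised reads in lymphomas and 223 to 431 in controls (0.32, adjusted p = 0.728).

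HSPA8 (HSC70), the constitutive HSP70, had 31226, 36795 and 41956 normalised reads in Boxer lymphomas, 29655, 14218 and 26350.0 in other-breed lymphomas and 21073, 20778 and 14064 in controls. Other-breed lymphoma 2 lay among the controls and the other 5 lymphomas above them. The log2 fold change was 0.64 ± 0.32 (adjusted p = 0.143), and 0.84 (adjusted p = 0.0179) without other-breed lymphoma 2. That was the lowest lymphoma, so leaving it out had to raise the estimate and the pass is no support for a rise. The log2 ratio of HSPH1 to HSPA8 within a library was -3.92 to -2.87 in lymphomas and -5.03 to -4.44 in controls, with no overlap. This pair, too, was chosen after its values were seen and was not tested.

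HSPA14, a ribosome-bound HSP70, averaged 614 ± 57.9 normalised reads in lymphomas and 694 ± 109 in controls (SD, n = 6 and 3; log2 fold change -0.17, adjusted p = 0.436). HSPA2, best known from male germ cells, had 284 to 1731 normalised reads in lymphomas and 248 to 285 in controls (1.01, adjusted p = 0.172, and 0.0460 by DESeq2's test). HSPA12B, a distant HSP70 relative known from endothelial cells, had 33.1, 37.9 and 81.2 normalised reads in Boxer lymphomas, 0, 0 and 48.8 in other-breed lymphomas and 4.09, 0 and 1.85 in controls. Pooled over libraries, 203 reads in lymphomas against 5 in controls gave a ratio of 19.6 (95% counting interval 8.28 to 61.1). The limma fit did not pass (log2 fold change 2.44 ± 1.55, adjusted p = 0.241) and passed without other-breed lymphomas 1 and 2 (4.31, adjusted p = 0.0017). These 2 lymphomas had no read of the gene, so leaving them out had to raise the estimate, and that pass is no support for a rise. Those 2 lymphomas were also the lowest in summed endothelial markers (6.08 and 6.96 CPM), below the controls. The part of endothelial cells in the HSPA12B values was not tested.

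The stress-inducible HSP70 genes HSPA1A and HSPA1B were not found under these symbols and were not analysed here. A feature named HSP70, outside the rule and picked after its values were seen, had 530.1, 108 and 104 normalised reads in Boxer lymphomas, 9.42, 12.6 and 94.5 in other-breed lymphomas and 139, 424 and 305 in controls. Boxer lymphoma 1 was the highest library and the other 5 lymphomas lay below all controls. The log2 fold change was -1.995 ± 1.10 (adjusted p = 0.177).

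**Figure D4:**
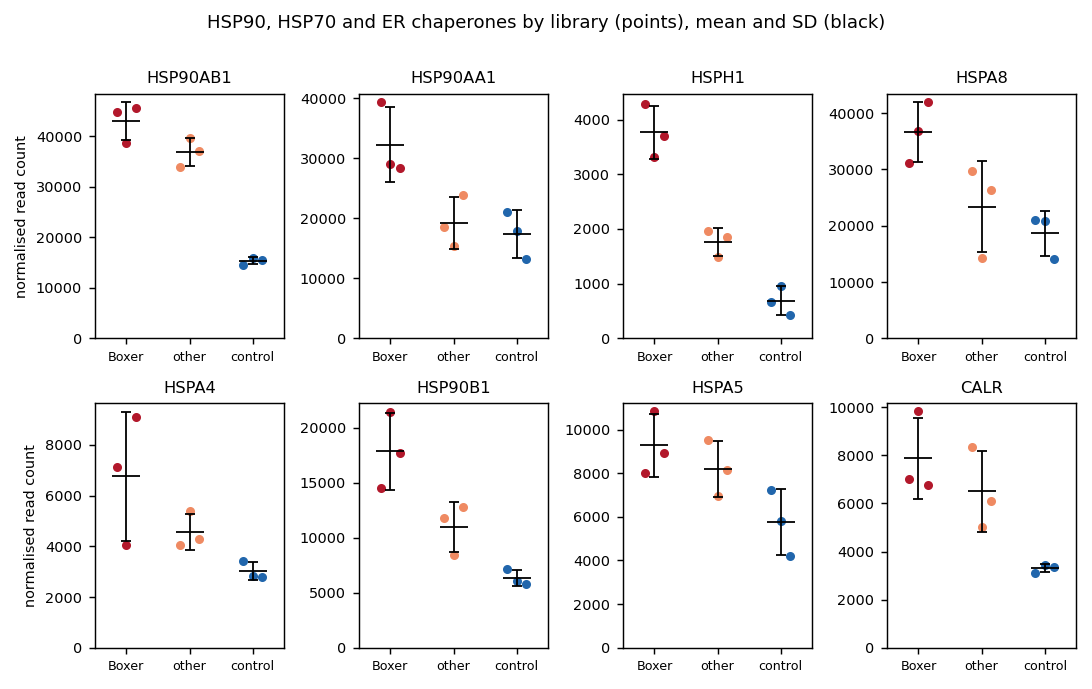
Normalised read counts of 8 HSP90, HSP70 and ER chaperone genes in each library; points are libraries, black lines the mean and SD of 3 Boxer lymphomas, 3 other-breed lymphomas and 3 controls, and each panel has its own axis from 0. HSP90AB1, HSPH1, HSPA4, HSP90B1 and CALR show no overlap between the 6 lymphomas and the 3 controls, while HSP90AA1, HSPA8 and HSPA5 do.

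J-domain genes of the cytosol and nucleus moved in both directions, as did genes in general. Of 16 tested, 3 rose, 2 fell and 11 did not pass, where 19.4% of all genes rose and 15.7% fell. The summed level of all 17 genes was 682 to 841 CPM in lymphomas and 766 to 807 CPM in controls. DNAJA4, a cytosolic partner of HSP70, had 818, 1155 and 654 normalised reads in Boxer lymphomas, 294, 523 and 252 in other-breed lymphomas and 142, 173 and 181 in controls. The gene rose by 1.70 ± 0.44 on the log2 scale (adjusted p = 0.0145), and the groups did not overlap. The call was lost without control 1 (adjusted p = 0.0629) and without control 2 (0.0513).

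DNAJC9, which also acts as a histone chaperone, averaged 655 ± 90.4 normalised reads in lymphomas and 347 ± 15.3 in controls (SD, n = 6 and 3; log2 fold change 0.91 ± 0.17, adjusted p = 0.00272). Markers of dividing cells, given above, also separated the groups, and their part in this difference was not tested. DNAJC8, associated with the spliceosome, averaged 1924 ± 226 in lymphomas and 1286 ± 97.8 in controls (0.58 ± 0.14, adjusted p = 0.0102), and did not pass without control 2 (0.0631). For both genes all lymphomas lay above all controls.

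DNAJB2 and DNAJB13 fell. DNAJB2, which helps deliver HSP70 clients to the proteasome, had 736, 758 and 857 normalised reads in Boxer lymphomas, 898, 938 and 1053 in other-breed lymphomas and 1617, 1547 and 1840.1 in controls. It fell by 0.94 ± 0.15 on the log2 scale (adjusted p = 0.00157). DNAJB13, known from cilia and sperm flagella, had 51.8, 20.9 and 68.7 normalised reads in Boxer lymphomas, 51.8, 188 and 83.8 in other-breed lymphomas and 453, 599 and 673 in controls. Its log2 fold change was -3.15 ± 0.55 (adjusted p = 0.00212), the largest fall of the 60 genes. Neither gene's groups overlapped.

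DNAJB1 (HSP40), the classical heat-inducible partner of HSP70, had 1212, 731 and 678 normalised reads in Boxer lymphomas, 413, 665 and 475 in other-breed lymphomas and 945, 1877 and 455 in controls. The 3 controls spread wider than the 6 lymphomas, and the log2 fold change was -0.51 ± 0.43 (adjusted p = 0.377). The log2 ratio of DNAJA4 to DNAJB1 within a library was -0.92 to 0.66 in lymphomas and -3.44 to -1.33 in controls, without overlap. As with the other pairs, it was chosen after its values were seen and was not tested.

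The other 10 J-domain genes of this group did not pass. DNAJA2 averaged 803 ± 90.2 normalised reads in lymphomas and 774 ± 115 in controls (log2 change 0.05, 95% interval -0.30 to 0.41). DNAJB6, which keeps aggregation-prone proteins soluble, averaged 692 ± 150.0 in lymphomas and 494 ± 6.03 in controls (0.46, adjusted p = 0.104). It passed without Boxer lymphoma 1 (adjusted p = 0.0361), the lowest lymphoma for this gene. DNAJC7 averaged 1716 ± 393 in lymphomas and 2093 ± 183 in controls (-0.31, adjusted p = 0.232). For each of these 3 genes lymphomas and controls overlapped. DNAJC12 was high in 1 library: it had 251 normalised reads in other-breed lymphoma 2, 1.18 to 23.7 in the other 5 lymphomas and 0 to 5.46 in controls (2.35 ± 1.39, adjusted p = 0.208).

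**Figure D5:**
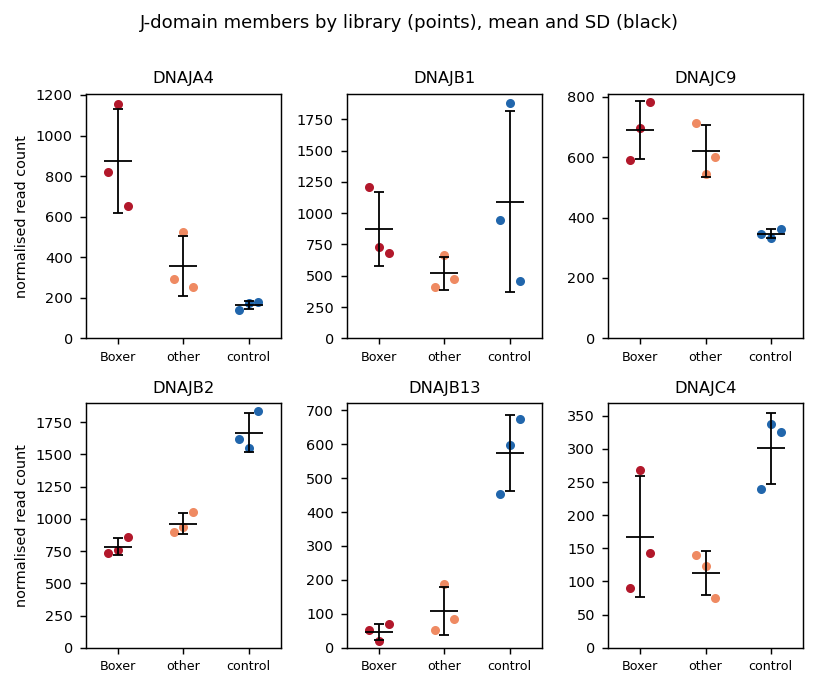
Normalised read counts of 6 J-domain genes in each library; points are libraries, black lines the mean and SD of 3 Boxer lymphomas, 3 other-breed lymphomas and 3 controls, and each panel has its own axis from 0. DNAJA4 and DNAJC9 lie higher in all lymphomas than in controls, DNAJB2 and DNAJB13 lower, and DNAJB1 and DNAJC4 overlap between lymphomas and controls.

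In the ER, 5 of 14 genes rose and 9 did not pass, where 19.4% of all genes rose. HSP90B1 (GRP94), the HSP90 of the ER, had 14479.9, 21413 and 17652 normalised reads in Boxer lymphomas, 11753, 8416 and 12749 in other-breed lymphomas and 7164, 6075 and 5766 in controls. HSP90B1 rose by 1.13 ± 0.26 on the log2 scale (adjusted p = 0.00884), but did not pass with age as a covariate (0.77, adjusted p = 0.239) or in female dogs alone (1.03, adjusted p = 0.0538). CALR, a lectin that folds glycoproteins, had 7005, 9823 and 6784 normalised reads in Boxer lymphomas, 8359, 5031 and 6099.5 in other-breed lymphomas and 3112, 3447 and 3369 in controls (1.09 ± 0.20, adjusted p = 0.00288). CANX, its membrane-bound relative, had 7588, 4549 and 3376 in Boxer lymphomas, 8327, 5523 and 7665 in other-breed lymphomas and 3015, 3001 and 3314 in controls. The groups of these 3 genes did not overlap, but for CANX the gap between Boxer lymphoma 3 and the highest control was small. The log2 fold change of CANX was 0.92 ± 0.28 (adjusted p = 0.0263). The call was lost whenever 1 control was left out (adjusted p 0.0695 to 0.0922) and without other-breed lymphomas 1 and 2 (0.0523).

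HSPA5 (BiP), the HSP70 of the ER, had 8022, 10867 and 8942 normalised reads in Boxer lymphomas, 9501, 6942 and 8142 in other-breed lymphomas and 7229.9, 5802 and 4216 in controls. Other-breed lymphoma 2 lay below control 1. The log2 fold change was 0.62 ± 0.20 (adjusted p = 0.0341), and it did not pass without control 2 (adjusted p = 0.0953), control 3 (0.171), Boxer lymphoma 2 (0.0529), Boxer lymphoma 3 (0.0561) or other-breed lymphoma 1 (0.0535). DNAJC3 (P58IPK), a J-domain partner of HSPA5, averaged 3441 ± 993 in lymphomas and 2049.9 ± 317 in controls (0.70 ± 0.25, adjusted p = 0.0488), and Boxer lymphoma 3 lay below control 1. Its adjusted p was 0.0541 with TMM scaling and 0.0546 with edgeR's test, and it did not pass when any single control, any single other-breed lymphoma or Boxer lymphoma 2 was left out (0.0639 to 0.158).

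The other 9 ER genes did not pass. DNAJB9 (ERdj4), a target of the unfolded protein response, had 116 to 426 normalised reads in lymphomas and 269 to 592 in controls (log2 change -0.62 ± 0.41, adjusted p = 0.255). HSPA13 averaged 1509 ± 526 in lymphomas and 903 ± 192 in controls (0.68 ± 0.30, adjusted p = 0.0971). It passed without other-breed lymphoma 1 (adjusted p = 0.0403), the lowest lymphoma for this gene. DNAJC10 (ERdj5), a disulfide reductase, averaged 2429 ± 961 in lymphomas and 1799 ± 172 in controls (0.35 ± 0.29, adjusted p = 0.369). Plasma cell markers, which belong to a cell type rich in ER, averaged 165 ± 117 CPM in sum in lymphomas and 52.7 ± 3.81 CPM in controls, and their part in the ER results was not tested.

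From the list of ER folding and unfolded protein response genes outside the rule, 7 of 22 rose and 2 fell, where 19.4% of all genes rose and 15.7% fell (median log2 fold change 0.16 over the list and 0.05 over all genes). HYOU1 (GRP170), the exchange factor of HSPA5, had 3657, 4351 and 4584 normalised reads in Boxer lymphomas, 4011, 3517 and 3715 in other-breed lymphomas and 1834, 1622 and 1975 in controls (log2 fold change 1.13 ± 0.14, adjusted p = 0.000321). MANF, HERPUD1 and UGGT1 rose as well, by 1.35, 1.12 and 0.50 on the log2 scale. ERN1 (IRE1), a sensor of unfolded proteins, fell to 107 to 620 normalised reads in lymphomas, against 749 to 813 in controls (-2.06, adjusted p = 0.012). ATF4, a transcription factor of the same response, had 4370 to 6750 in lymphomas and 7825 to 9718 in controls (-0.68, adjusted p = 0.0138). The sensors EIF2AK3 (PERK; -0.09, adjusted p = 0.844) and ATF6 (-0.18, adjusted p = 0.675) and the transcription factor DDIT3 (CHOP; 0.36, adjusted p = 0.0880) did not pass. XBP1 was not analysed here.

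Of 7 mitochondrial genes tested, 1 rose and 1 fell, where 19.4% of all genes rose and 15.7% fell. DNAJA3 (TID1), the J-domain partner of mitochondrial HSP70, averaged 1325 ± 409 normalised reads in lymphomas and 757 ± 49.1 in controls (log2 change 0.75 ± 0.25, adjusted p = 0.0393). All lymphomas lay above the controls, yet the call was lost with scaling by total reads (adjusted p = 0.0616), whenever 1 control was left out (0.0928 to 0.126), without Boxer lymphoma 1 (0.0614) or 3 (0.0573), without other-breed lymphoma 2 (0.0588) and without other-breed lymphomas 1 and 2 together (0.0591). DNAJC4 fell to 90.1, 268 and 144 normalised reads in Boxer lymphomas and 140.1, 123 and 75.4 in other-breed lymphomas, against 239, 338 and 326 in controls (-1.20 ± 0.38, adjusted p = 0.0310). Boxer lymphoma 2 lay above control 1, and the call was lost whenever 1 control was left out (adjusted p 0.0589 to 0.121).

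HSPA9 (mortalin), the HSP70 of mitochondria, had 4953, 2663 and 2777 normalised reads in Boxer lymphomas, 3268, 4959 and 2952 in other-breed lymphomas and 3019, 2693 and 2901 in controls. A pair of lymphomas, Boxer lymphoma 1 and other-breed lymphoma 2, stood above the rest (log2 fold change 0.28 ± 0.23, adjusted p = 0.367). DNAJC15 averaged 94.9 ± 7.17 in lymphomas and 63.9 ± 3.26 in controls, with no overlap, but did not pass (0.56 ± 0.26, adjusted p = 0.122), except by DESeq2's test (0.0326). The row named HSPE1, the mitochondrial co-chaperonin, held 0 to 4.17 normalised reads in lymphomas and 0 to 0.826 in controls. It was not tested, and no level of HSPE1 was read from it. In the list of mitochondrial folding and proteolysis genes 3 of 13 rose (19.4% of all genes did), among them TRAP1, the HSP90 of mitochondria (log2 fold change 0.95, adjusted p = 0.00175), and 2 fell, HTRA2 (-0.79) and PMPCB (-0.42).

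Small heat shock proteins hold unfolded proteins without using ATP. This group was taken by the HSPB symbol, which need not mean that each gene has that role. Of its 4 genes tested 1 rose, where 19.4% of all genes did. HSPB8, a partner of BAG3 in selective autophagy, had 67.1, 27.5 and 111 normalised reads in Boxer lymphomas, 15.3, 0.789 and 90.2 in other-breed lymphomas and 4.09, 0 and 0 in controls. Control 1 thus lay above other-breed lymphoma 2. Pooled over libraries, 314 reads in lymphomas against 3 in controls gave a ratio of 50.6 (95% counting interval 17.2 to 247), and the fitted log2 fold change was 4.07 ± 1.25 (adjusted p = 0.0292). With age as a covariate the log2 fold change was 1.65 and did not pass (adjusted p = 0.569). The call was also lost without control 2 (adjusted p = 0.114), control 3 (0.111), Boxer lymphoma 1 (0.0510), Boxer lymphoma 3 (0.0530) or other-breed lymphoma 3 (0.0513). The lymphomas with the fewest HSPB8 reads, other-breed lymphomas 1 and 2, also had the lowest fibroblast marker sums among lymphomas (8.97 and 5.37 CPM, against 134 to 738 CPM in the other 4), and the part of those cells in the result was not tested.

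HSPB1 (HSP27) had 283, 157 and 225 normalised reads in Boxer lymphomas, 142, 52.0 and 589 in other-breed lymphomas and 199, 241 and 207 in controls (log2 fold change -0.19 ± 0.60, adjusted p = 0.819). The other-breed lymphomas spanned more than the range of all other libraries. HSPB6 and HSPB11 did not pass either (adjusted p = 0.676 and 0.163). Among vesicle genes, DNAJC13, an endosomal protein, had 2197 to 2441 normalised reads in lymphomas and 2469 to 2945 in controls. All lymphomas lay below the controls, but the difference was small and did not pass (-0.25 ± 0.12, adjusted p = 0.125, and 0.0354 by DESeq2's test). DNAJC5 and DNAJC27 did not pass (adjusted p = 0.638 and 0.193).

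Heat shock factors, the transcription factors of the heat shock response, and HSBP1, an HSF1-binding protein, made a list of 4 genes. Between all lymphomas and controls none of the 4 passed in limma's test (1, HSBP1, had an unadjusted p under 0.05), 0 by edgeR's test and 1, HSBP1, by DESeq2's. HSBP1 had 207, 247 and 209 normalised reads in Boxer lymphomas, 206, 105 and 125 in other-breed lymphomas and 101, 95.8 and 119 in controls. In Boxer lymphomas it rose in limma's test (log2 fold change 1.07 ± 0.32, adjusted p = 0.0308), a call lost when any single control or Boxer lymphoma was left out (0.0514 to 0.106); in other-breed lymphomas it did not pass (0.41, adjusted p = 0.376). HSF1 had 619, 1074 and 585 normalised reads in Boxer lymphomas, 742, 586 and 630.4 in other-breed lymphomas and 732, 834 and 877 in controls (log2 fold change -0.24, adjusted p = 0.400). The log2 fold change was -0.02 for HSF2 (adjusted p = 0.971), 0.69 for HSF4 (adjusted p = 0.541) and 0.74 for HSBP1 (adjusted p = 0.0965). BAG3, a co-chaperone induced by heat, had 313 normalised reads in Boxer lymphoma 1, 12.9 to 76.4 in the other 5 lymphomas and 52.8 to 56.0 in controls (-0.17, adjusted p = 0.890).

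The lymphoma groups were then each set against the same 3 controls, so these comparisons are not independent of each other. In Boxer lymphomas 21 of 60 chaperone genes rose and 2 fell, where 18.6% of all genes rose and 14.4% fell (33.0% in all). In other-breed lymphomas 16 rose and 3 fell, where 13.8% of all genes rose and 10.7% fell (24.5% in all). The 7 CCT subunits rose in both, by 0.87 to 1.89 in Boxer lymphomas and 0.63 to 1.42 in other-breed lymphomas on the log2 scale. HSPH1 had log2 fold changes of 2.53 ± 0.27 in Boxer lymphomas and 1.43 ± 0.27 in other-breed lymphomas, and DNAJA4 of 2.37 ± 0.32 in Boxer lymphomas and 1.04 ± 0.32 in other-breed lymphomas. HSP90AA1 had 0.90 ± 0.26 (limma adjusted p = 0.0269) in Boxer lymphomas and 0.15 (adjusted p = 0.706) in other-breed lymphomas. Its Boxer call was lost without control 2, control 3 or Boxer lymphoma 1 (0.0728 to 0.105). HSPA8 had 0.99 ± 0.31 (adjusted p = 0.0361) in Boxer lymphomas and 0.28 (adjusted p = 0.529) in other-breed lymphomas. HSPA12B had 4.29 ± 1.44 (adjusted p = 0.0462) in Boxer lymphomas and 0.59 (adjusted p = 0.79) in other-breed lymphomas. Both Boxer calls were lost without any single control, Boxer lymphoma 2 or Boxer lymphoma 3 (HSPA8 0.0657 to 0.132, HSPA12B 0.076 to 0.152). The HSPA12B call was also lost without Boxer lymphoma 1 (0.079), with a pseudocount of 0.5 (0.0601), with no filter (0.0585) and by edgeR's test (0.092). HSPA12B and HSPB8, among the 21, met the filter only through the lymphomas. The counts moved with single controls: without control 2, 13 rose in Boxer lymphomas (10.8% of all genes did) and 5 in other-breed lymphomas (7.13%), and in other-breed lymphomas 9 rose without control 1 (8.62%) and 8 without control 3 (7.93%). In other-breed lymphomas CCT3, CCT4, CCT6A and TCP1 did not pass without control 2 (adjusted p 0.0572 to 0.0789), and DNAJA4 did not pass when any single control was left out (0.0918 to 0.130).

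The lymphoma groups were also compared with each other without the controls. None of the 60 chaperone genes passed in limma's test, where 0% of the 15112 genes tested did; 4 chaperone genes and 753 genes in all had an unadjusted p under 0.05. HSPH1, whose values are given above, had the smallest p of the chaperone genes (log2 fold change 1.10 ± 0.20, 95% interval 0.63 to 1.56, adjusted p = 0.613), and it was higher in each Boxer lymphoma than in each other-breed lymphoma. DESeq2's Wald test on the recovered reads called HSPH1 alone among chaperone genes (1.09, adjusted p = 0.00319). That test called 0.291% of all genes higher and 0.384% lower, while edgeR's test called no gene at all. DNAJA4 followed with 1.33 ± 0.36 (adjusted p = 0.881), and HSP90AA1 with 0.75 ± 0.28 (adjusted p = 0.881). HSP90B1, with 0.71 ± 0.26 (adjusted p = 0.881), was the fourth of the genes with an unadjusted p under 0.05. The 95% intervals of the differences in the 7 CCT subunits ran from -0.40 to 1.05 on the log2 scale.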

How the data were processed

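Messenger RNA of 9 libraries was enriched with oligo(dT) and copied with random hexamers, per the labels' protocols. TopHat2, HTSeq and DESeq2 were used with build CanFam3.1, per the submitters' processing notes, and strand handling is not stated. The deposited signal is the authors' read count per gene divided by 1 size factor per library, and 100% of values were whole multiples of 1 read (tolerance 0.01). Genes with near-identical copies, such as HSPA8 and HSP90AA1, can lose ambiguous reads or share them, which limits their levels and ratios.

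limma 3.58.1 (R 4.3.3) was run on log2(value + 1), which understates changes of low genes, with empirical Bayes moderation, a mean-variance trend and Benjamini-Hochberg adjustment over all genes that reached 10 normalised reads in 3 or more libraries of the fit. The threshold was an adjusted p of 0.05. Lymphomas were compared with controls in 1 fit, the lymphoma groups with controls in a 3-group fit of all 9 libraries, and Boxer with other-breed lymphomas among the 6 lymphomas. Alternatives were TMM and total-read scaling, pseudocounts of 0.5 and 5, no filter and a minimum of 50, edgeR 4.0.16 and DESeq2 1.42.0 on recovered reads, a replicate block, leaving out each library or other-breed lymphomas 1 and 2, and age or female dogs alone. Counting intervals cover counting error only. The fits were tested on simulated data.

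The genes, their groups and the marker and pathway lists were chosen with earlier results of these data known. Named genes were a core list of 28 chaperones (23 found), the 6 with the largest change per direction, the 3 with the smallest p between breeds and up to 4 per direction of each pathway list; others are named for their role or after their values were seen. The search of promoters for motifs was not run.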

Additional observations from a re-analysis of the deposited data

Results flagged for a closer look

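DNAJC4 had 268 normalised reads in Boxer lymphoma 2, farther above the other 5 lymphomas than their spread (75.4 to 144). The gap to the nearest of them was 0.646 of the range of the 6 lymphomas. Such a gap arises by chance in about 1 of 20 groups. The rule was run on every core and called gene and on the group sums, so 1 flag can arise by chance. Other genes, such as DNAJC12 with its 1 high library, were not screened. In the comparison of Boxer lymphomas with controls, DNAJC4 passed without Boxer lymphoma 2 (log2 fold change -1.38, adjusted p = 0.0332). As that was the highest lymphoma, leaving it out had to lower the estimate.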

How the results depend on the processing

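Of the 23 calls between lymphomas and controls, 6 held under all 21 alternatives (CCT2, CCT3, CCT6A, CCT8, HSP90AB1 and DNAJB2), 7 were lost with age as a covariate alone (CCT4, CCT5, TCP1, CALR, HSPH1, DNAJC9 and DNAJB13, adjusted p 0.0520 to 0.0963), and 10 were lost under another alternative. In that order, the log2 fold changes of the 7 with age were 0.78, 0.99, 0.76, 1.07, 1.83, 0.94 and -2.72. Without age they were 0.75, 1.03, 0.87, 1.09, 1.98, 0.91 and -3.15. Age and group overlap in these dogs, and the part of age in the lost calls was not tested. With age, 5 genes rose and 1 fell, where 6.56% and 5.54% of all genes did. Leaving out 1 library gave 12 to 19 genes higher and 2 to 4 lower for lymphomas, 13 to 21 higher and 2 to 3 lower for Boxer lymphomas, and 5 to 17 higher and 2 to 3 lower for other-breed lymphomas, all against controls. Over the same fits 11.9% to 20.9% of all genes were higher and 7.60% to 16.5% lower for lymphomas, 10.8% to 19.8% and 6.85% to 15.9% for Boxer lymphomas, and 7.13% to 14.5% and 3.62% to 11.8% for other-breed lymphomas. Without other-breed lymphomas 1 and 2, the Collie lymphoma alone gave 8 higher and 1 lower than controls, with its spread taken from the other groups, and HSPB1 turned to 1.45 (adjusted p = 0.0456), against -0.39 with all 3. DESeq2 called 1 chaperone gene higher between Boxer and other-breed lymphomas, where 0.291% of all genes were higher and 0.384% lower. With the replicate number as a block, 17 genes were higher and 3 lower in lymphomas, 18 and 2 in Boxer lymphomas and 14 and 3 in other-breed lymphomas against controls (17.2% and 13.5%, 16.3% and 12%, and 11.3% and 8.14% of all genes), and 0 and 0 between breeds. The numbers did not pair the libraries: deviations of libraries with the same number correlated at -0.136 to 0.104. The log2 ratios within libraries were recomputed with 1 library left out at a time, after seeing the data. Lymphoma minus control ran over 0.66 to 1.04, 1.22 to 1.54 and 1.75 to 2.80 for the HSP90, HSPH1 and DNAJA4 pairs. As the pairs were chosen after their values were seen, these ranges are no support for a difference. The 3 controls limit every comparison with them.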
